A study of Homo sapiens with 4 samples.

Results

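The genes described here were 8 cadherin genes, *CDH1*, *CDH2*, *CDH3*, *CDH4*, *CDH5*, *CDH6*, *CDH11* and *CDH13*, of 63677 genes in the count table. They were listed by symbol as classical and type II cadherins, and the list was drawn up from the measured difference between miR-6133-5p and miControl so as to set strongly lower members against stable ones. The differences of these 8 genes are therefore given as a description, with no test. LX-2 is an established line derived from human hepatic stellate cells, which lay down collagen in the fibrotic liver. Cells received 20 nM of an miR-6133-5p mimic or of miControl, a negative control mimic, and all cells were given 5 ng/mL of rhTGF-β1, recombinant human transforming growth factor β1, which activates stellate cells, 24 h later. RNA was collected after a further 24 h, and there were 2 libraries per group, called replicates 1 and 2. All 4 libraries analysed here thus had both a mimic and rhTGF-β1, and the values describe a single cell line. The labels do not say that replicates were separate cultures, so the p-values given for other genes measure only the spread between these libraries.

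Cadherins are membrane proteins that hold neighboring cells together through calcium-dependent binding of their extracellular repeats. The cytoplasmic tail of the classical type I cadherins (E-, N-, P- and R-cadherin, from *CDH1*, *CDH2*, *CDH3* and *CDH4*) and of the type II cadherins (VE-, K- and OB-cadherin, from *CDH5*, *CDH6* and *CDH11*) binds p120-catenin and β-catenin, and β-catenin links it through α-catenin to actin. T-cadherin, from *CDH13*, is anchored in the membrane by a lipid and has no such tail, so it is strictly neither classical nor type II. N-cadherin and OB-cadherin are typical of mesenchymal cells such as fibroblasts and activated stellate cells, E-cadherin of epithelium and VE-cadherin of endothelium.

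The precursor hairpin of the transfected miRNA is shown because it identifies the agent that separates the groups. It is the RefSeq entry of MIR6133 on GRCh38.p14, at chr7:133290881-133290988 on the plus strand, 108 bases long, written in lower case with no part marked:
MIR6133 hairpin: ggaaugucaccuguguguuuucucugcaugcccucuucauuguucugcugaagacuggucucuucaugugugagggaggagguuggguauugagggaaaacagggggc

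Counts on genes summed to between 51862006 and 93811213 per library. Levels are given as CPM, counts per 1000000 of the library total after scaling by TMM, a factor that equalizes the bulk of genes between libraries. Of the 8 cadherins, 5 passed edgeR's filter on low counts (*CDH2*, *CDH4*, *CDH6*, *CDH11* and *CDH13*) among 18252 tested genes, and 3 did not (*CDH1*, *CDH3* and *CDH5*). Of the 5, 4 had a log2 fold change (miR-6133-5p minus miControl) below −0.8, a size that 9.23% of all tested genes reached, and nothing is read from that count because the members were chosen on this contrast. Whether a member's groups overlapped is likewise description only, because the share of all tested genes without overlap was not computed. In bulk RNA, fewer cells carrying a transcript and less of the transcript per cell cannot be told apart.

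The 2 detected type I cadherins were *CDH2* and *CDH4*. *CDH2* (ENSG00000170558), N-cadherin, the main cadherin of mesenchymal cells, lies on the minus strand of chromosome 18 from 25512843 to 25757910 of GRCh37. It stood at 944 and 951 CPM in the miControl libraries and at 509 and 518 CPM in the miR-6133-5p libraries. Both miR-6133-5p libraries were below both miControl libraries, and within each group the libraries were close together. The means were 947 ± 5.36 CPM (SD, n = 2) and 514 ± 5.98 CPM (SD, n = 2), a log2 fold change of −0.88 with a standard error of 0.0996, so 54.2% of the miControl level remained. *CDH4* (ENSG00000179242), R-cadherin, best known from retina and nervous system, spans 688 kb of chromosome 20. Its level was 224 and 208 CPM with miControl and 69.7 and 86.1 CPM with miR-6133-5p. Again the groups did not overlap, though the miR-6133-5p libraries were farther apart than for *CDH2*. The means were 216 ± 11.7 and 77.9 ± 11.6 CPM (SD, n = 2 each), with a log2 fold change of −1.47 and a standard error of 0.121. Depending on which pair of libraries was compared, the log2 difference of *CDH4* lay between −1.69 and −1.27, the widest range of the 5.

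Among the type II cadherins, *CDH6* had the largest fold change of the 5 tested members. *CDH6* (ENSG00000113361), K-cadherin, known from the developing kidney, lies on the plus strand of chromosome 5 from 31193793 to 31329253. It was measured at 180 and 187 CPM in the miControl libraries and at 18.4 and 19.1 CPM in the miR-6133-5p libraries, which came from 8834 and 10174 counts against 1205 and 1897. Even the lowest library held 1205 counts, and the groups lay far apart. Its means were 183 ± 5.02 and 18.8 ± 0.499 CPM (SD, n = 2 each), a 9.76-fold lower level and a log2 fold change of −3.29 with a standard error of 0.110. This was the value ranked 13 from the lowest among the 18252 tested genes, a description because *CDH6* was listed on this contrast. *CDH11* (ENSG00000140937), OB-cadherin, first known from osteoblasts and carried by many fibroblasts, spans 182 kb on chromosome 16. Its levels were 90.2 and 95.6 CPM with miControl and 35.4 and 36.7 CPM with miR-6133-5p. Here too the miR-6133-5p libraries were both lower and close to each other. With means of 92.9 ± 3.76 and 36.0 ± 0.880 CPM (SD, n = 2 each), its log2 fold change was −1.37 with a standard error of 0.102, and 38.8% of the miControl level remained.

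*CDH13* (ENSG00000140945), the lipid-anchored T-cadherin, a receptor for adiponectin, had the smallest difference of the 5. The gene spans 1174 kb of chromosome 16, the longest of the 8. It was at 114 and 113 CPM in the miControl libraries and at 77.8 and 81.4 CPM in the miR-6133-5p libraries. The groups did not overlap, yet 70.2% of the miControl level remained. The means were 113 ± 0.662 and 79.6 ± 2.49 CPM (SD, n = 2 each), a log2 fold change of −0.51 with a standard error of 0.1003. Of the members, *CDH2* was the nearest inside the limit of −0.8 and *CDH13* the nearest outside it. The place of *CDH2* rests on the scaling, because with library totals alone its log2 fold change was −0.72 and only 3 of 5 members passed the limit. The median over all tested genes moved from 0.03 to 0.19 on the log2 scale with that change of scaling. Taken relative to that median, the difference was −0.91 for *CDH2*, −1.497 for *CDH4*, −3.31 for *CDH6*, −1.39 for *CDH11* and −0.54 for *CDH13* under either scaling. A change of scaling shifts every gene and the median by nearly the same amount, so this agreement follows from the arithmetic and tests nothing.

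**Figure D1:**
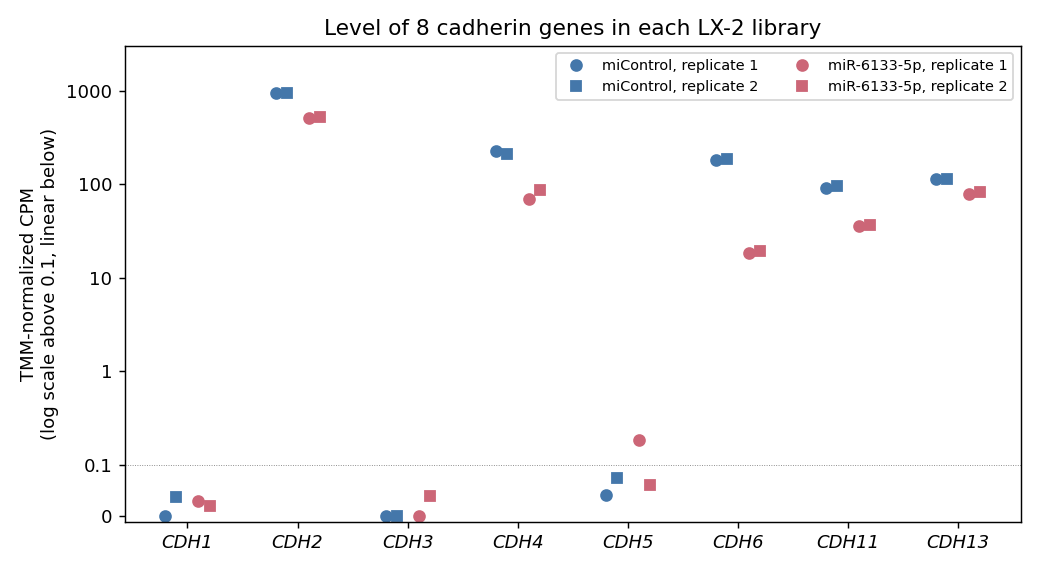
Level of each of the 8 cadherins in each library, in CPM on a log axis, with miControl and miR-6133-5p libraries in separate colors. The groups are farthest apart for *CDH6* (183 against 18.8 CPM on average) and nearest for *CDH13* (113 against 79.6 CPM) among the 5 tested genes, and *CDH1*, *CDH3* and *CDH5* lie near the floor.

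*CDH1*, *CDH3* and *CDH5* were at or near 0. *CDH1*, E-cadherin, had 0 counts in replicate 1 of miControl and 2 counts in each of the other libraries. *CDH3*, P-cadherin, had no count except 4 in replicate 2 of miR-6133-5p. *CDH5*, VE-cadherin, had 2 and 4 counts with miControl and 12 and 6 counts with miR-6133-5p. A count of 3 was worth at most 0.0610 CPM, and *CDH5* reached 0.184 CPM at most, so no fold is given for these genes and a difference was not detectable at this depth. Markers of the cell types that carry E-cadherin and VE-cadherin were also low. The 10 epithelial markers summed to 7.69 to 7.88 CPM with miControl and 10.8 to 11.3 CPM with miR-6133-5p. Of these, *ESRP1*, *GRHL2* and *CDH16* had 3 counts or fewer in every library, and *KRT7* and *CLDN4* were the highest. *KRT7* lay at 3.62 and 4.44 CPM in the miControl libraries, against 6.61 and 7.08 CPM in the miR-6133-5p libraries. For *KRT7* edgeR gave an adjusted p of 0.00317 and a log2 fold change of 0.76, short of the 0.8 needed for a call. *CLDN4* was not called either (log2 fold change 0.23, edgeR adjusted p = 0.377). Of 10 endothelial markers, 9 were in the table, where they summed to 17.1 to 17.3 and 18.6 to 19.5 CPM in the respective groups, with *EMCN* at 3 counts or fewer throughout. Within that list *ROBO4* was called lower (log2 fold change −0.84, edgeR adjusted p = 0.00171), while *TIE1*, the highest of the 9 with miR-6133-5p, was at 6.63 and 6.87 CPM with miControl and 10.54 and 10.96 CPM with miR-6133-5p (log2 fold change 0.67, edgeR adjusted p = 0.0018, under the limit on size). The part of these cells in the values of *CDH1* and *CDH5* was not tested.

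Stellate identity was checked in the same libraries. The 12 stellate and mesenchymal markers summed to 4713 to 5197 CPM with miControl and 2858 to 3181 CPM with miR-6133-5p, of which *COL1A1* and *ACTA2* passed the test as lower and *DES* had 3 counts or fewer in every library. *VIM*, vimentin, the intermediate filament of mesenchymal cells, was at 1815 ± 54.6 and 1793 ± 336 CPM (SD, n = 2 each) with overlapping libraries. The summed hepatocyte markers reached at most 2.84 CPM and the leukocyte markers at most 2.34 CPM in any library.

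To compare the cadherins with each other, levels were divided by the length of all exons of each gene. On this scale of CPM per kb, the miControl order was *CDH2* (110 ± 0.625), *CDH4* (28.7 ± 1.56), *CDH6* (14.7 ± 0.404), *CDH13* (10.3 ± 0.0601) and *CDH11* (6.999 ± 0.283), each as mean ± SD of 2 libraries. No neighbors in this order overlapped between libraries. With miR-6133-5p, the order of the levels in CPM per kb was *CDH2* (59.8 ± 0.697), *CDH4* (10.4 ± 1.54), *CDH13* (7.22 ± 0.226), *CDH11* (2.72 ± 0.0663) and *CDH6* (1.51 ± 0.0401). *CDH6* thus stood above *CDH13* and *CDH11* with miControl and below both with miR-6133-5p, and the others kept their order among themselves. Dividing by the longest annotated transcript gave the same order, although *CDH4* (11.7 ± 1.74) and *CDH13* (10.1 ± 0.316; SD, n = 2 each) in miR-6133-5p cells then differed by less than the SD of *CDH4*. In the miControl cells the level of *CDH2* per kb exceeded that of 98.6% of tested genes and the level of *CDH6* that of 83.9%.

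The summed level of the 8 cadherins was 171 and 171 CPM per kb in the miControl libraries and 79.9 and 83.5 CPM per kb in the miR-6133-5p libraries. All shares of this sum are of RNA, named by the encoded protein, and cadherin proteins were not measured in these libraries. The N-cadherin transcript made up most of the summed level in every library. Its share was 64.5% ± 0.478 (SD, n = 2) with miControl and 73.3% ± 1.44 (SD, n = 2) with miR-6133-5p. R-cadherin made up 16.8% ± 0.882 and 12.7% ± 1.49 (SD, n = 2 each), and OB-cadherin 4.09% ± 0.173 and 3.32% ± 0.0230. The share of K-cadherin was 8.60% ± 0.251 with miControl and 1.85% ± 0.00884 with miR-6133-5p, while T-cadherin went from 6.01% ± 0.0246 to 8.84% ± 0.000661 (SD, n = 2 each). The part of the sum made of the transcript of tail-less T-cadherin was therefore higher with miR-6133-5p although the level of that transcript was lower.

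Ratios between members within a library do not depend on the scaling between libraries. *CDH6* to *CDH13* per kb was 1.40 and 1.47 in the miControl libraries and 0.210 and 0.208 in the miR-6133-5p libraries. Between the type II members, *CDH6* to *CDH11* was 2.12 and 2.09 against 0.555 and 0.557. The type I pair differed less, with *CDH2* to *CDH4* at 3.68 and 4.01 with miControl and 6.40 and 5.27 with miR-6133-5p. *CDH4* to *CDH11* was 4.39 and 3.84 against 3.48 and 4.15, so for this pair the libraries of the groups overlapped. *CDH13* to *CDH11* was 1.52 and 1.42 against 2.65 and 2.67. The members were listed for unequal differences, so these ratios are a description.

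Several features of the genes were not used in listing them. *CDH1*, *CDH3*, *CDH5*, *CDH11* and *CDH13* all lie on chromosome 16, of which *CDH1*, *CDH3* and *CDH5* were near 0 and *CDH11* and *CDH13* were not. The longest annotated transcripts of the 5 tested members ranged from 4016 bases (*CDH2*) to 8540 bases (*CDH6*). None of the 8 reaches 10 kb. Genes with transcripts of 10 kb or more were higher in replicate 2 than in replicate 1 of miR-6133-5p by a median of 0.33 on the log2 scale (699 genes), against −0.02 for the 17018 genes with shorter ones. Of 28 pairs of members, 0 shared a stretch of 50 identical bases in their transcripts. The exons of *CDH13* are overlapped over 21.4% of their length by the opposite-strand gene *CDH13-AS2*, and the setting used for counting by strand is not given in the sources used here. *CDH13-AS2* itself had 5 to 16 counts per library, against 5089 to 8065 for *CDH13*. *DUX4L51* overlaps 8.91% of the exons of *CDH6* on the same strand and had 0 counts in every library.

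The genes whose pattern over the 4 libraries was most like that of a member were found among 9464 genes by the Euclidean distance between log2 CPM values centered on each gene's mean. Nearest to *CDH6* was *ITGA5*, the integrin α5 chain of the fibronectin receptor (distance 0.217), then *STX2* (0.605) and *ZDHHC9* (0.607). The log2 fold change of *ITGA5* was −3.13. For *CDH11* the nearest were *RNF24* (0.0458), *LRRC8C* (0.0474) and *DENND2A* (0.0516). *CDH2* was nearest to *TWIST2* (0.0169), *WIPI1* (0.0192) and *NF2* (0.0261), of which *TWIST2* encodes a mesenchymal transcription factor and *NF2* encodes merlin, a membrane-associated tumor suppressor. With 2 libraries per group, any gene with a group difference of like size and close replicates gives a small distance.

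**Figure D2:**
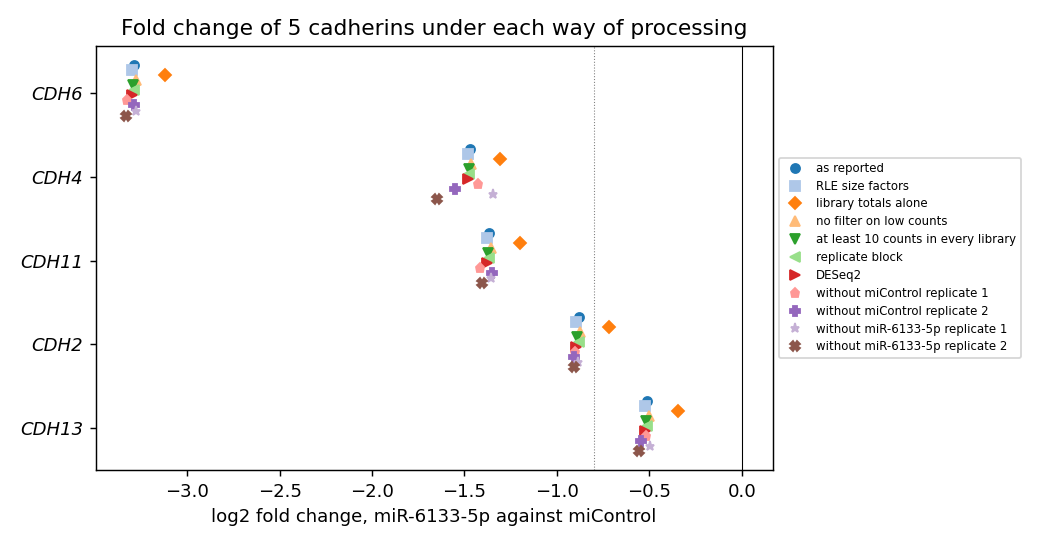
Log2 fold change (miR-6133-5p minus miControl) of the 5 tested cadherins as reported and under each other processing, including each library left out in turn. All values are below 0, those of *CDH6* between −3.33 and −3.12, and library totals alone place every member nearer to 0.

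The machinery around these cadherins was examined in 12 lists of related genes compiled by function and symbol, tested with edgeR's quasi-likelihood test and Benjamini–Hochberg adjustment over all 18252 genes. Calls needed both an adjusted p-value under 0.01 and a log2 fold change of more than 0.8 in size. Of 191 listed genes, 190 were in the table and 135 were tested. Among these, 19 fell (14.1%, against 5.54% of all tested genes) and 5 rose (3.70%, against 2.90%), and their median log2 fold change was −0.20 against 0.03 over all tested genes. With library totals alone, 16 fell and 8 rose, so that 66.7% of the calls were lower instead of 79.2%, and over all tested genes that share went from 65.6% to 42.1%. With glmTreat, which tests against a change of 0.8 instead of 0, 7 fell (*PCDH9*, *PTPRF*, *PCDH10*, *FURIN*, *FJX1*, *PCDH17* and *PCSK7*) and 1 rose (*PKP3*), against 326 and 80 of all tested genes, and the other calls given below were lost. An exact permutation test of a single value could not go below p = 0.333 with 2 libraries per group and was not used.

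The list of catenins and their relatives contained no called gene. Of 7 tested, 0 were called by edgeR and 0 by DESeq2, against 5.54% called lower and 2.90% higher among all tested genes by edgeR. So short a list would often hold no call at those shares, so nothing is read from the 0. At an unadjusted p-value below 0.05, 3 were lower and 3 higher, which 20.3% and 20.0% of all tested genes reached in the respective directions. An adjusted p-value below 0.01 without the size for a call was reached by 4, *CTNND1* and *PKP4* lower and *ARVCF* and *CTNNAL1* higher. *ARVCF* was nearest the limit (log2 fold change 0.77, edgeR adjusted p = 0.0032), and with library totals alone 1 catenin was called higher. *CTNNB1*, β-catenin, averaged 509 ± 1.63 CPM in miControl cells and 534 ± 1.71 CPM in miR-6133-5p cells (SD, n = 2 each, log2 fold change 0.07, edgeR adjusted p = 0.657). *CTNND1*, p120-catenin, which keeps cadherins at the membrane, was at 386 ± 1.95 and 255 ± 7.33 CPM (SD, n = 2 each). Its log2 fold change of −0.60 (edgeR adjusted p = 0.000597) passed the limit on p but not the limit on size, and 39.1% of its exon length is shared with other genes on the same strand. *CTNNA1*, α-catenin, had a log2 fold change of −0.39 (edgeR adjusted p = 0.0104) and *JUP*, plakoglobin, one of 0.37 (edgeR adjusted p = 0.0253). Across the 4 libraries β-catenin lay between 508 and 535 CPM, while N-cadherin ranged from 509 to 951 CPM.

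Of 16 actin linkers at adherens junctions, 3 fell and 2 rose. *VCL*, vinculin, which is drawn to α-catenin under tension, fell from 693 ± 5.44 to 332 ± 29.6 CPM (SD, n = 2 each; log2 fold change −1.06, edgeR adjusted p = 8.77e-06), and 11.1% of its exon length is overlapped on the opposite strand by *AP3M1*. *LPP*, a LIM protein of adhesion sites, had a log2 fold change of −0.97 (edgeR adjusted p = 0.000491), a call lost without any one of 3 libraries (miControl replicate 1 or 2, or miR-6133-5p replicate 1, where it was −0.71). *LIMA1*, an actin-binding protein chosen here after its value was seen, fell by 0.81 on the log2 scale, and its call was lost with library totals alone (−0.64) and without miR-6133-5p replicate 2 (−0.798). *AJUBA* (0.84) and *PLEKHA7* (0.83), a p120-catenin partner, rose, but the call of *PLEKHA7* was lost without miControl replicate 1, miControl replicate 2 or miR-6133-5p replicate 2.

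Among proteases and other genes of cadherin cleavage and turnover, 2 of 17 tested genes fell and none rose by edgeR, and DESeq2 called 2 lower and 0 higher. At an unadjusted p-value below 0.05, 6 were lower and 4 higher, against 20.3% and 20.0% of all tested genes. Both that fell were proprotein convertases, the enzymes that cut the propeptide from immature cadherins among many other substrates. *FURIN* fell from 220 ± 14.5 to 75.4 ± 4.08 CPM (SD, n = 2 each; log2 fold change −1.55, edgeR adjusted p = 4.27e-07), and *PCSK7* had a log2 fold change of −1.29 (edgeR adjusted p = 1.46e-06), with 20.6% of its exon length overlapped on the opposite strand by *TAGLN* and another gene. *ADAM10*, the sheddase that releases the N-cadherin ectodomain, had a log2 fold change of −0.30 (edgeR adjusted p = 0.0738) and was not called. Of 14 kinases and phosphatases that act on cadherin complexes, 2 fell. *PTPRF*, the receptor phosphatase LAR, fell from 565 ± 22.7 to 148 ± 28.8 CPM (SD, n = 2 each; log2 fold change −1.94, edgeR adjusted p = 3.59e-07), and *PTPN14* had a log2 fold change of −1.01, a call lost without miControl replicate 1 or miR-6133-5p replicate 1.

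Transcription factors that repress *CDH1* or mark mesenchymal cells were listed because E-cadherin was near 0 and N-cadherin high. Of 11 tested, 2 fell and 8 were lower at an unadjusted p-value below 0.05, against 20.3% of all tested genes. *SNAI2*, Slug, fell from 131 ± 2.23 to 59.0 ± 6.11 CPM (SD, n = 2 each; log2 fold change −1.16, edgeR adjusted p = 4.81e-06), and *TWIST2* had a log2 fold change of −0.87 (edgeR adjusted p = 0.000122), or −0.71 and no call with library totals alone. *ZEB1*, *TWIST1* and *SNAI1* were not called, with log2 fold changes of −0.06, 0.10 and −0.58, and neither was *ZEB2* at −0.37. *CDH1* remained at 2 counts or fewer in all 4 libraries beside these values.

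Other members of the cadherin superfamily were read as a background for the 5 expressed cadherins. Of 11 further classical and type II cadherin genes only *CDH18*, *CDH20* and *CDH24* were tested, and 0 of 3 were called by edgeR or DESeq2 or passed an unadjusted p-value of 0.05. These 3 genes are too few to set beside the shares called over all tested genes. Of 6 tested 7D and other single cadherins 1 rose, *CDH23* of the hair cell tip link, from 8 and 5 counts to 44 and 65 counts, a call lost without either miControl library and with no adjusted p-value from DESeq2, and 18.9% of its exon length is overlapped on the opposite strand. Of 7 tested non-clustered protocadherins, which adhere weakly and are mostly known from neurons, 4 fell and 1 rose, with a median log2 fold change of −0.92. The log2 fold change was −1.95 for *PCDH9* (edgeR adjusted p = 2.03e-07), −1.83 for *PCDH10* (edgeR adjusted p = 4.87e-07), −1.35 for *PCDH17* and −0.92 for *PCDH7*, which was chosen after its value was seen and was not called with library totals alone (−0.76). *PCDH1* rose by 1.16 at 0.945 to 2.12 CPM, a call lost without either miControl library.

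Of 13 FAT, Dachsous, flamingo and calsyntenin genes with their regulators, 4 fell. *FAT1*, a giant protocadherin, fell from 765 ± 24.4 to 329 ± 109 CPM (SD, n = 2 each), a log2 fold change of −1.22. Log2 fold changes were −1.37 for *FAT3*, −1.63 for *CLSTN2* and −1.5001 for *FJX1*, a relative of a kinase that acts on Fat cadherins. *FAT1*, *FAT3*, *CLSTN2*, *PCDH9*, *LPP* and *PTPN14* have transcripts over 10 kb and were higher in replicate 2 than in replicate 1 of miR-6133-5p. *CDH23*, also over 10 kb, was not, at 0.673 CPM in replicate 1 and 0.656 CPM in replicate 2. Shorter called genes went both ways. In replicates 1 and 2 *DSP* (22.7 and 31.8 CPM) and *PTPRF* (127 and 168 CPM) were higher in the second, *FJX1* (14.8 and 13.2 CPM) and *SNAI2* (63.3 and 54.6 CPM) lower. The call of *CLSTN2* was lost without miControl replicate 1. The part of transcript length in these values was not tested. Of 4 tested desmosomal genes, *DSP*, desmoplakin, fell from 57.1 ± 4.98 to 27.3 ± 6.44 CPM (SD, n = 2 each), and *PKP3*, plakophilin 3, rose from 0.735 ± 0.0532 to 3.04 ± 0.271 CPM (SD, n = 2 each). None of 7 tested nectins and nectin-like genes was called by edgeR or DESeq2, with 3 lower and 2 higher at an unadjusted p-value below 0.05. Of 30 tested clustered protocadherins, which share exons so that reads may be split between them, 1 fell (*PCDHGC5*, log2 fold change −1.02), and leaving out miR-6133-5p replicate 2 gave 9. The call of *PCDHGC5* itself was lost without any one of 3 libraries, miControl replicate 1, miControl replicate 2 or miR-6133-5p replicate 1.

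**Figure D3:**
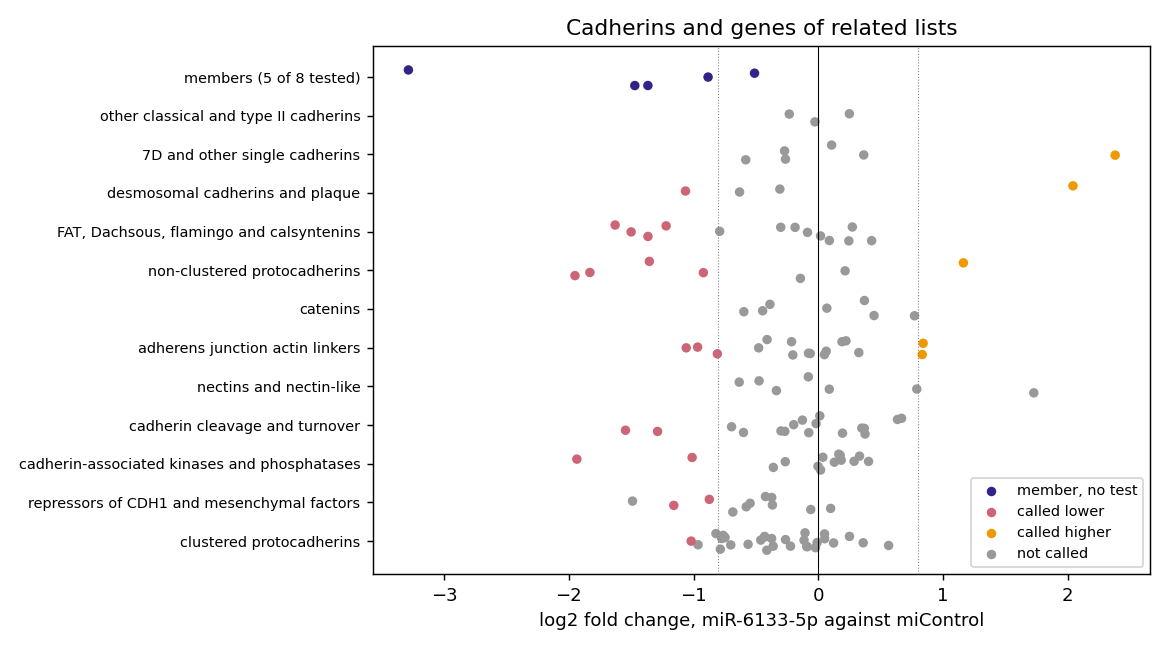
Log2 fold change (miR-6133-5p minus miControl) of every tested gene in the 12 related lists and of the 5 tested members, 1 point per gene, with genes called lower and higher marked and dotted lines at the limits of −0.8 and 0.8. The catenins and nectins, with 7 tested genes each, hold no called gene, and nothing is read from that. *CDH6* at −3.29 lies below every related gene, which is a description because the members were listed on this contrast.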

How the data were processed

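LX-2 RNA was sequenced in 2 libraries per group. Reads were aligned to GRCh37 with STAR 2.5.3a, and featureCounts and Subread 1.6.4 stand in the submitters' processing notes; the annotation release and strand setting are not given in the sources used here. Whole-number counts per Ensembl gene, without normalization, were deposited by the authors. After filterByExpr and TMM normalization, edgeR 4.0.16 (R 4.3.3) fitted the counts with glmQLFit, without a replicate block, with 2-sided tests and Benjamini–Hochberg adjustment over 18252 genes. Standard errors came from the F statistic. The limits for calls, 0.01 on the adjusted p-value and 0.8 on the log2 fold change, are those of the study's methods. Library totals were 51862006, 57903388, 61747010 and 93811213 counts, which TMM scaled to 49163547, 54467191, 65383337 and 99136261 for CPM, with no pseudocount. Counting error is not the only error in these values, so no interval was computed from counts. Exon lengths, positions and overlaps came from GENCODE annotation on GRCh37, which need not be that used for counting.

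The members, gene lists, rules and alternatives were chosen with earlier results of these data known. All 8 members were named, with up to 4 called genes of largest change per related list, 11 genes of catenins, repressors and others whatever their value, and the 3 genes of nearest pattern to *CDH6*, *CDH11* and *CDH2* among genes averaging 3 or more on the log2 CPM scale. Replicates differed by more than counting noise (chi-square per degree of freedom 14.4 with miControl and 52.6 with miR-6133-5p). The alternatives were RLE size factors, library totals alone, no filter, at least 10 counts in every library, a replicate block, glmTreat, an adjusted p-value of 0.05, DESeq2 1.42.0, the longest transcript as length and each library left out in turn. Both tools were tested on simulated counts holding 200 changed genes. Of these edgeR, run on 17773 genes, found 100% with 3 false calls, and DESeq2, run on 18252, found 98.5% with 1. The shares found were not split by size of change or by level. Nothing is therefore read from them about calls near the limit on size or at low counts. Planned searches for miRNA seed matches and comparisons of protein sequences were not made. Plots were drawn with matplotlib 3.10.9.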

Additional observations from a re-analysis of the deposited data

How the results depend on the processing

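The members and the called genes named from the related lists kept their direction under every alternative that gave them a value. The called markers *ROBO4*, *COL1A1* and *ACTA2* were not followed through the alternatives. The uncalled *ZEB1*, *TWIST1* and *VIM* changed sign, with log2 fold changes of −0.30 to 0.19, −0.0217 to 0.19 and −0.24 to 0.15 over the libraries left out, and of 0.10 for *ZEB1* and 0.15 for *VIM* with library totals alone. The widest changes came with glmTreat, a test against a change of 0.8 rather than 0, which by its construction calls fewer genes: 326 of all genes fell and 80 rose, and 7 related genes fell and 1 rose. With library totals alone the balance over all genes turned, as 709 fell and 977 rose, and 8 related genes rose. The members' log2 fold changes were then −0.72 for *CDH2*, −1.31 for *CDH4*, −3.12 for *CDH6*, −1.20 for *CDH11* and −0.35 for *CDH13*. Dividing by the longest transcript instead of all exons gave shares of the cadherin sum in miControl and miR-6133-5p cells of 74.3% and 81.4% for *CDH2*, 10.2% and 7.42% for *CDH4*, 6.76% and 1.40% for *CDH6* and 4.53% and 6.43% for *CDH13*. With each library left out in turn, the genes that fell numbered 770 to 1249 and those that rose 293 to 587 over all genes, and 15 to 28 and 2 to 5 among related genes, with 2 that rose without either miControl library. Where 1 library is left, it is assumed to vary like the other group. The same omissions gave log2 fold changes of −0.91 to −0.89 for *CDH2*, −1.65 to −1.34 for *CDH4*, −3.33 to −3.28 for *CDH6*, −1.42 to −1.35 for *CDH11* and −0.56 to −0.50 for *CDH13*. The replicate block gave 1130 genes that fell and 642 that rose, 23 and 5 of them related, and −1.48 for *CDH4*. Same-numbered libraries share only a number, with a correlation of their deviations of 0.049 over 2 pairs. Depth did not allow folds for *CDH1*, *CDH3* and *CDH5*, and 2 libraries per group limit every standard error.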
